A study of Homo sapiens with 12 samples.

Results

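The genes described here encode feedback inhibitors of the ERK pathway, namely the MAP kinase phosphatases DUSP1, DUSP4, DUSP5, DUSP6 and DUSP7, the Sprouty proteins SPRY1, SPRY2 and SPRY4, and the Sprouty-related proteins SPRED1 and SPRED2. All probes to which the array platform gives one of these 10 symbols were taken, which gave 17 probes of the 48104 used, for 10 of 20046 named genes. The series profiled HCC827, a line from a human lung adenocarcinoma that depends on mutant EGFR, with 12 Illumina arrays in 4 groups of 3. The groups were HCC827 alone with DMSO, the solvent control, HCC827 alone with 0.5 µM gefitinib, an inhibitor of the EGFR kinase, HCC827 in co-culture with MRC-5 without drug, and HCC827 in co-culture with MRC-5 and 0.5 µM gefitinib. MRC-5 is a line of normal human lung fibroblasts. Per the labels, gefitinib was added after 24 h, the cells were washed with PBS, and the co-culture ran for 48 h through inserts with 1 µm pores. The labels name RPMI medium for routine growth and EMEM for the co-culture, and do not say which of these the monocultures had during the last 48 h. All groups share 1 cell line, and the labels do not say that the replicates were separate cultures, so p-values measure the spread between these arrays, which may be technical.

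ERK, the last kinase of the cascade from EGFR through RAS, RAF and MEK, switches on genes whose products dampen the same cascade. DUSP phosphatases remove the activating phosphates from MAP kinases, with DUSP5 in the nucleus and DUSP6 and DUSP7 in the cytoplasm acting mainly on ERK. Sprouty proteins act between receptor kinases and RAF, and SPRED proteins bring the RAS inhibitor neurofibromin to the membrane. In lung cancer cells driven by mutant EGFR, the transcripts of several of these genes are used as a readout of ERK activity.

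Values are normalized log2 intensities, called levels below, and are compared only within a probe. Each comparison was tested with limma's moderated test in 1 model of all 12 arrays, and a probe was called when its p-value, adjusted by Benjamini-Hochberg over 25896 probes, was under 0.05. Errors of changes are standard errors, and errors of levels are standard deviations, with n = 3 arrays per group. Probes were tested where 3 or more of the 12 arrays had a detection p under 0.05, which held for 10 of the 17 probes and 8 of the 10 genes. Between 43.4% and 46.5% of probes were detected per array. The 6 monoculture arrays had median scanner intensities of 99.1 to 103, the 6 co-culture arrays of 106 to 110, and the order of scanner rows differed between the 2 sets. Such array differences, the medium, the control and the co-culture itself cannot be told apart in comparisons between the cultures. The monoculture control is named with DMSO and the co-culture control only as without drug. The titles of the 6 co-culture arrays also carry a tag, WH, that no monoculture title has. Epithelial markers were detected in every group, in 9 or 10 of the 10 genes with a probe on all 3 arrays. Their summed linear level was not constant. It ranged from 26831 to 27746 with DMSO and from 25221 to 25778 with gefitinib in monoculture. In co-culture it ranged from 24885 to 26113 without drug and from 21568 to 22469 with gefitinib. Of 15 fibroblast markers, PDGFRA, PDGFRB, THY1, POSTN and FAP were not detected on any of the 12 arrays. The other 10 were detected on at least 1 array, and between 2 and 5 of the list were detected on all 3 arrays of a group.

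In monoculture, gefitinib lowered 8 of the 10 tested probes of these genes and raised 1, that of DUSP1. Over all probes, 10.6% were called lower and 11.4% higher in this comparison, 22% in all, and 51.8% of these calls were higher, or 39.9% with median scaling. With 1 probe per gene symbol, 4275 of 13577 were called, 2301 higher and 1974 lower, and 7 of the 8 member probes. The median log2 change of the 10 probes was -0.90, against 0.00215 over all probes. In co-culture, 1 of the 10 probes was called lower with gefitinib, that of DUSP6, and 1 higher, that of DUSP1. Of all probes 0.772% were called there, 0.487% lower and 0.286% higher. At an unadjusted p under 0.05 by limma, 3 member probes were lower in co-culture, those of DUSP6, SPRY4 (ILMN_2086105) and SPRY1 (ILMN_2329914), and 1 was higher. The median change in co-culture was -0.18, against 5.79e-04 over all probes. Probes of the same gene, as for SPRY1 and SPRY4, share their target and are not independent of each other.

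**Figure D1:**
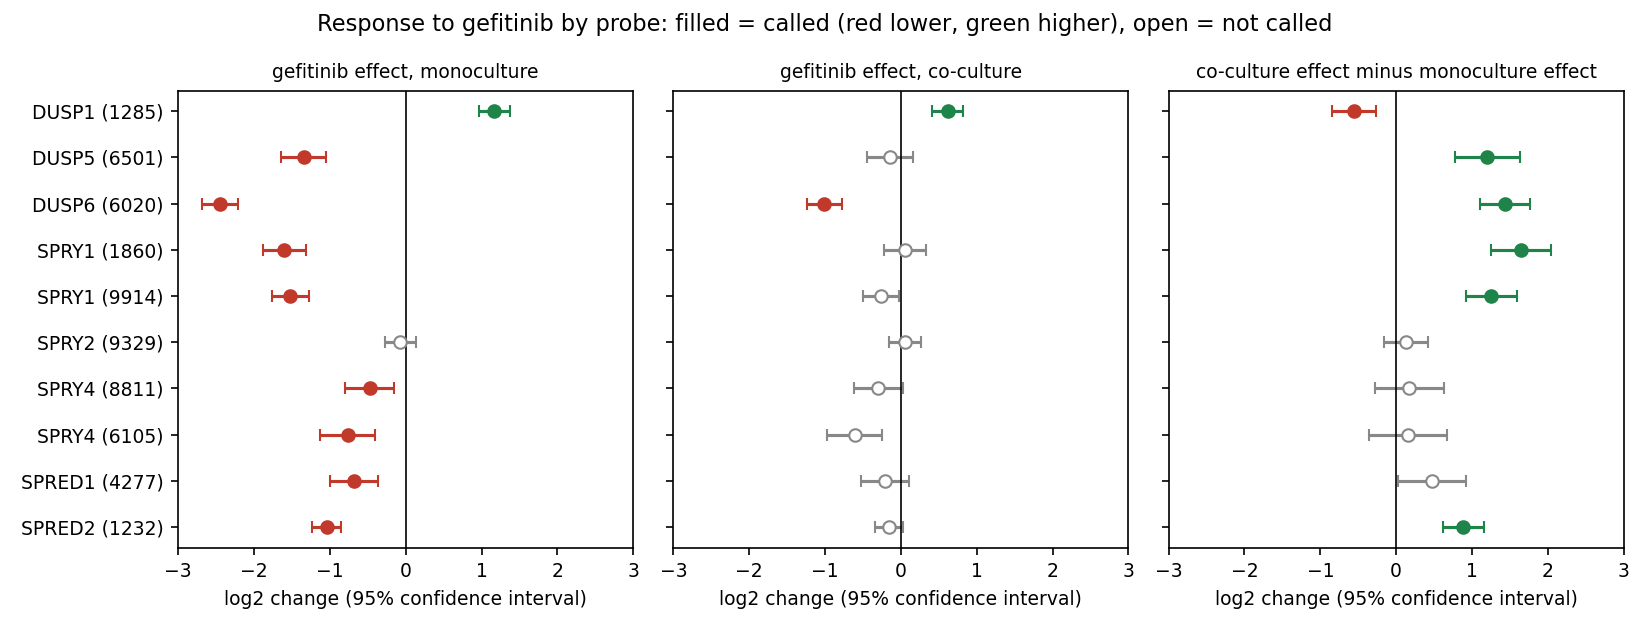
Log2 change with gefitinib in monoculture (left), in co-culture (middle) and the difference of these changes (right) for the 10 tested probes, with 95% confidence intervals from limma, n = 3 arrays per group. The left panel shows 8 probes called lower and that of DUSP1 called higher, whereas in the middle panel DUSP6 and DUSP1 are the called probes.

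DUSP6, the cytoplasmic ERK phosphatase, was lowered by gefitinib in both cultures. Its change in monoculture was the largest of the members with the main background correction, but not without that correction, where DUSP1 (1.12) and SPRY1 (-1.12) moved slightly more than DUSP6 (-1.11). Its level on the 3 DMSO arrays was 7.33, 7.23 and 7.27, and on the 3 gefitinib arrays 4.92, 4.94 and 4.65. In co-culture the levels were 7.75, 7.66 and 7.79 without drug and 6.66, 6.67 and 6.84 with it. None of the 4 groups overlapped, and the order from high to low was co-culture, DMSO monoculture, co-culture with gefitinib and gefitinib monoculture. In monoculture the change was -2.44 ± 0.11 (adjusted p = 1.73e-07), a fall of 5.43-fold. In co-culture it was -1.01 ± 0.11 (adjusted p = 0.00137), a fall of 2.01-fold, and with only the 6 co-culture arrays in the model the adjusted p was 0.0522. The fall in co-culture was smaller by 1.43 ± 0.15 (adjusted p = 0.000151). The sizes depend on the background correction, because the gefitinib monoculture arrays lay near background, at a median scanner intensity of 108 against 227 with DMSO. On the authors' normalized values the changes were -1.12 in monoculture and -0.65 in co-culture, and their difference was 0.47 (adjusted p = 0.00275).

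Between the cultures, DUSP6 under gefitinib was higher in co-culture by 1.89 ± 0.11 (adjusted p = 4.49e-07), or by 0.77 on the authors' values. Without drug it was higher in co-culture by 0.45 ± 0.11 (adjusted p = 0.0441), a call that ended under 14 of 21 other settings, including the omission of any 1 array other than replicate 3 of either gefitinib group (0.42 to 0.49, adjusted p = 0.0535 to 0.144), and on the authors' values the change was 0.30. Set against DMSO monoculture, co-culture with gefitinib was lower by 0.56 ± 0.11 on the log2 scale (log2 change -0.56, adjusted p = 0.0162). That call ended without DMSO replicate 1, 2 or 3 or gefitinib co-culture replicate 1 or 2 (adjusted p = 0.0518 to 0.0689), and the change was -0.35 on the authors' values. The platform lists the other DUSP6 probe, ILMN_1677466, under a different RefSeq transcript record than ILMN_2396020. It was detected on 1 of 12 arrays, with levels from 4.21 to 4.90, and was not tested.

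DUSP5, the nuclear ERK phosphatase, was lowered by gefitinib in monoculture and was not called in co-culture. Its levels were 8.64, 8.58 and 8.36 with DMSO and 6.92, 7.28 and 7.34 with gefitinib. The co-culture arrays read 8.93, 8.87 and 9.10 without drug and 8.92, 8.68 and 8.86 with it. The gefitinib monoculture arrays were the low ones, and the 2 co-culture groups overlapped. The change in monoculture was -1.35 ± 0.14 (adjusted p = 3.33e-05), a fall of 2.54-fold. In co-culture it was -0.15 ± 0.14 (adjusted p = 0.812), with a 95% confidence interval from -0.45 to 0.16, and the effects differed by 1.20 ± 0.19 (adjusted p = 0.00241). Under gefitinib, DUSP5 was 3.12-fold higher in co-culture than in monoculture (1.64 ± 0.14, adjusted p = 6.79e-06). Without drug, the difference between the cultures of 0.44 ± 0.14 did not pass (adjusted p = 0.119), although it did on the authors' values (0.36, adjusted p = 0.0146).

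DUSP1, a nuclear phosphatase that acts on p38 and JNK as well as ERK and is induced by stress and by growth factors, moved the other way. Its levels were 10.58, 10.58 and 10.55 with DMSO and 11.74, 11.73 and 11.74 with gefitinib. The levels in co-culture were 10.36, 10.54 and 10.49 without drug and 11.05, 11.00 and 11.18 with it. Both gefitinib groups were higher than both groups without drug, with no overlap, and gefitinib monoculture was the highest. The change was 1.17 ± 0.093 in monoculture (adjusted p = 4.88e-06), a rise of 2.25-fold. In co-culture it was 0.62 ± 0.093 (adjusted p = 0.0104), a rise of 1.53-fold. This co-culture call ended with only the 6 co-culture arrays in the model (adjusted p = 0.195) and without co-culture replicate 1 (0.57, adjusted p = 0.0532). The rise in co-culture was smaller, by a log2 difference of -0.55 ± 0.13 (adjusted p = 0.0209), and this call ended with median scaling (-0.38, adjusted p = 0.166) and without DMSO replicate 3 or co-culture replicate 2 (adjusted p = 0.0504 and 0.0528). Co-culture with gefitinib stayed above DMSO monoculture by 0.51 ± 0.093 (adjusted p = 0.0124), a call that ended with only the arrays of these groups in the model (adjusted p = 0.0821) and without DMSO replicate 3 (adjusted p = 0.0548).

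RefSeq promoter windows are shown for DUSP6 and DUSP1 (GRCh38.p14, minus strand, from 250 bases before to 50 after the start). That of DUSP6 lies at chr12:89352452-89352751 and that of DUSP1 at chr5:172771146-172771445. Any link between these sequences and the responses to gefitinib was not tested. Capitals mark matches to the ETS core GGAA, the cyclic AMP response element TGACGTCA and the TATA box TATAAA, searched on both strands.
DUSP6: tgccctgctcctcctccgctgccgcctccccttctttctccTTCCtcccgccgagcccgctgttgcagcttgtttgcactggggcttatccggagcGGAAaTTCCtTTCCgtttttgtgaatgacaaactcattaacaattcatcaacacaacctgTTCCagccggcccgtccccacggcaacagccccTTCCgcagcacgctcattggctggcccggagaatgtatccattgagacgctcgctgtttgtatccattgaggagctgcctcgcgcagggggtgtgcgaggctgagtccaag
DUSP1: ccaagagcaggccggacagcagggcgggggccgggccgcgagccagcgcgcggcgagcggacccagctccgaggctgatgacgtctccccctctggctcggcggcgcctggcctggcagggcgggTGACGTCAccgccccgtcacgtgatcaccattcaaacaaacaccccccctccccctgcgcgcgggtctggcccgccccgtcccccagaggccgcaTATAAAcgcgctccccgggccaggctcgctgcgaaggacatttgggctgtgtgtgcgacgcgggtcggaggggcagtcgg
The DUSP6 window held 6 matches to GGAA, which 95.5% of all 35116 promoter windows of this length hold at least once, and the DUSP1 window held 0. The DUSP1 window held 1 match to TGACGTCA, found in 1.85% of all windows, and 1 to TATAAA, found in 11.5%, whereas the DUSP6 window held 0 of each. Neither window held the longer ETS motif CCGGAAGT (4.14% of windows), the AP-1 motif TGANTCA (7.71%) or a match to the serum response element (CArG box, 1.29%) or the NF-kB site (8.4%). These are matches of letters in a short window and say nothing on binding. The table held 12 windows for 8 of the 10 genes and none for DUSP4 and DUSP5. Of these windows that of DUSP1 alone held TGACGTCA. The other 2 features were not particular to DUSP1. The DUSP7 window also held 0 matches to GGAA, and 1 window of SPRED2 held 1 to TATAAA and 2 to TGANTCA.

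DUSP4, a nuclear phosphatase induced by ERK, was not detected on any of the 12 arrays with either of its 2 probes, whose levels lay between 4.11 and 4.72. DUSP7 was detected on 2 of the 3 DMSO arrays, with levels of 5.39, 4.32 and 4.94 over the 3, and on none of the other 9. No test was made for these genes. All 7 untested probes of the family lay between 4.11 and 5.39. The tested probes ranged from 4.18 to 11.74, and those of SPRY4 overlapped with the untested ones.

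**Figure D2:**
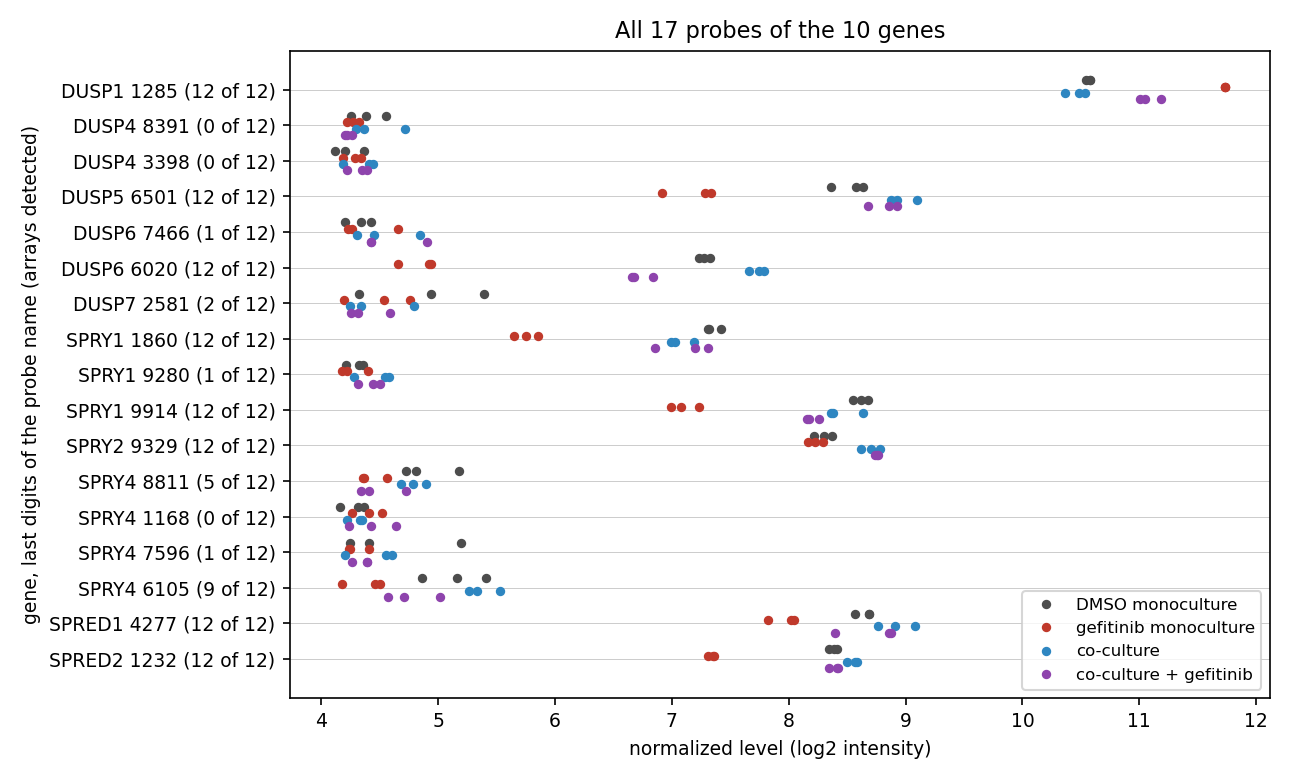
Normalized level (log2 intensity) of each of the 17 probes on the 12 arrays, coloured by group, with the number of arrays on which the probe was detected. The 2 probes of DUSP4 and the probe of DUSP7 lie at the low end in all groups, and DUSP6 has 1 probe near background beside 1 that responds.

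SPRY1, a Sprouty protein that restrains signalling from receptor kinases, was lowered by gefitinib in monoculture on both of its tested probes. Levels of the brighter probe, ILMN_2329914, were 8.55, 8.62 and 8.67 with DMSO and 7.23, 6.99 and 7.08 with gefitinib. In co-culture they were 8.38, 8.64 and 8.36 without drug and 8.17, 8.16 and 8.26 with it. Gefitinib monoculture was the low group, and the co-culture arrays with gefitinib lay just under those without. The change in monoculture was -1.52 ± 0.11 (adjusted p = 2.22e-06), a fall of 2.86-fold. In co-culture it was -0.26 ± 0.11 (adjusted p = 0.454), with a 95% confidence interval from -0.50 to -0.02. The effects differed by 1.26 ± 0.16 (adjusted p = 0.000435). The dimmer probe, ILMN_1691860, had levels of 7.42, 7.32 and 7.31 with DMSO and 5.85, 5.65 and 5.75 with gefitinib. The co-culture levels of this probe were 6.99, 7.03 and 7.19 without drug and 7.31, 6.85 and 7.20 with it. These co-culture groups overlapped, and gefitinib monoculture was again the low group. The changes were -1.60 ± 0.13 in monoculture (adjusted p = 4.74e-06; -0.85 on the authors' values) and 0.05 ± 0.13 in co-culture (adjusted p = 0.946). Both probes fell in monoculture, whereas in co-culture the brighter one leaned lower without a call and the dimmer one did not. The effects on the dimmer one differed by 1.65 ± 0.18 (adjusted p = 0.000188), or 0.88 on the authors' values. Co-culture with gefitinib was not called against DMSO monoculture on the brighter probe (-0.42 ± 0.11, adjusted p = 0.0672), but was on the authors' values (-0.34, adjusted p = 0.00800). Under gefitinib SPRY1 was higher in co-culture by 1.10 ± 0.11 (adjusted p = 2.42e-05) on the brighter probe and by 1.37 ± 0.13 (adjusted p = 1.52e-05; 0.69 on the authors' values) on the dimmer one. The third SPRY1 probe was detected on 1 of 12 arrays.

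SPRY2, the family member with a broad role in receptor kinase signalling, did not follow this pattern. Its levels were 8.37, 8.22 and 8.30 with DMSO and 8.29, 8.23 and 8.16 with gefitinib. The co-culture levels were 8.70, 8.78 and 8.62 without drug and 8.74, 8.77 and 8.76 with it. The groups separated by culture and overlapped by drug. Gefitinib changed SPRY2 by -0.07 ± 0.094 in monoculture (adjusted p = 0.675), with a 95% confidence interval from -0.28 to 0.13, and by 0.06 ± 0.094 in co-culture (adjusted p = 0.914). The difference of these effects was 0.13 ± 0.13 (adjusted p = 0.636). Co-culture was higher than monoculture under gefitinib by 0.53 ± 0.094 (adjusted p = 0.00139) and without drug by 0.40 ± 0.094 (adjusted p = 0.0398). The call without drug ended under 13 of 21 other settings, including the omission of any 1 of the 6 arrays compared, of gefitinib monoculture replicate 1 or 2, or of gefitinib co-culture replicate 1 or 3 (0.36 to 0.44, adjusted p = 0.0504 to 0.150). Co-culture with gefitinib was above DMSO monoculture by 0.46 ± 0.094 (adjusted p = 0.0221). That call ended with median scaling, with only the groups compared, without DMSO replicate 2 or 3 and without any 1 of the 3 gefitinib co-culture arrays (adjusted p = 0.0551 to 0.102).

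SPRY4, a Sprouty protein often named among ERK-induced genes, was close to background on all of its 4 probes, of which 2 were tested. Levels of ILMN_2086105 were 4.86, 5.16 and 5.41 with DMSO and 4.50, 4.46 and 4.18 with gefitinib. In co-culture they were 5.26, 5.33 and 5.53 without drug and 5.02, 4.58 and 4.71 with it. Within each culture the arrays with gefitinib lay under those without, with no overlap. This probe was not detected on any gefitinib monoculture array, so that only a bound exists there. By that bound it was at least 1.60-fold higher with DMSO than with gefitinib. The bound itself was not tested, and limma's adjusted p of 0.00608 belongs to the change without it (-0.76 ± 0.17). The bound holds for the main background correction, and on the authors' values the change in monoculture was -0.28 (adjusted p = 0.0122), smaller than the bound. In co-culture the change with gefitinib was -0.61 ± 0.17 (adjusted p = 0.174), or -0.18 on the authors' values. The difference of the effects was 0.16 ± 0.23 (adjusted p = 0.757) on this probe and 0.17 ± 0.21 (adjusted p = 0.689) on ILMN_1688811. Neither value can be read as an equal response, since both probes were not above background in gefitinib monoculture. ILMN_1688811 was also not detected on any array of co-culture with gefitinib. Its change in co-culture was -0.30 ± 0.15 (adjusted p = 0.560), and by its bound it was at least 1.19-fold higher there without drug than with gefitinib. The other tested probe, ILMN_1688811, was by its bound at least 1.34-fold higher with DMSO than with gefitinib in monoculture. Without the bound, limma called this probe at -0.47 ± 0.15 (adjusted p = 0.0400). Its call ended under 11 of 19 other settings, among them the authors' values (-0.16, adjusted p = 0.143), the omission of DMSO replicate 1 or 2, of gefitinib replicate 1 or 2, or of co-culture replicate 2, and the absence of a detection filter.

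**Figure D3:**
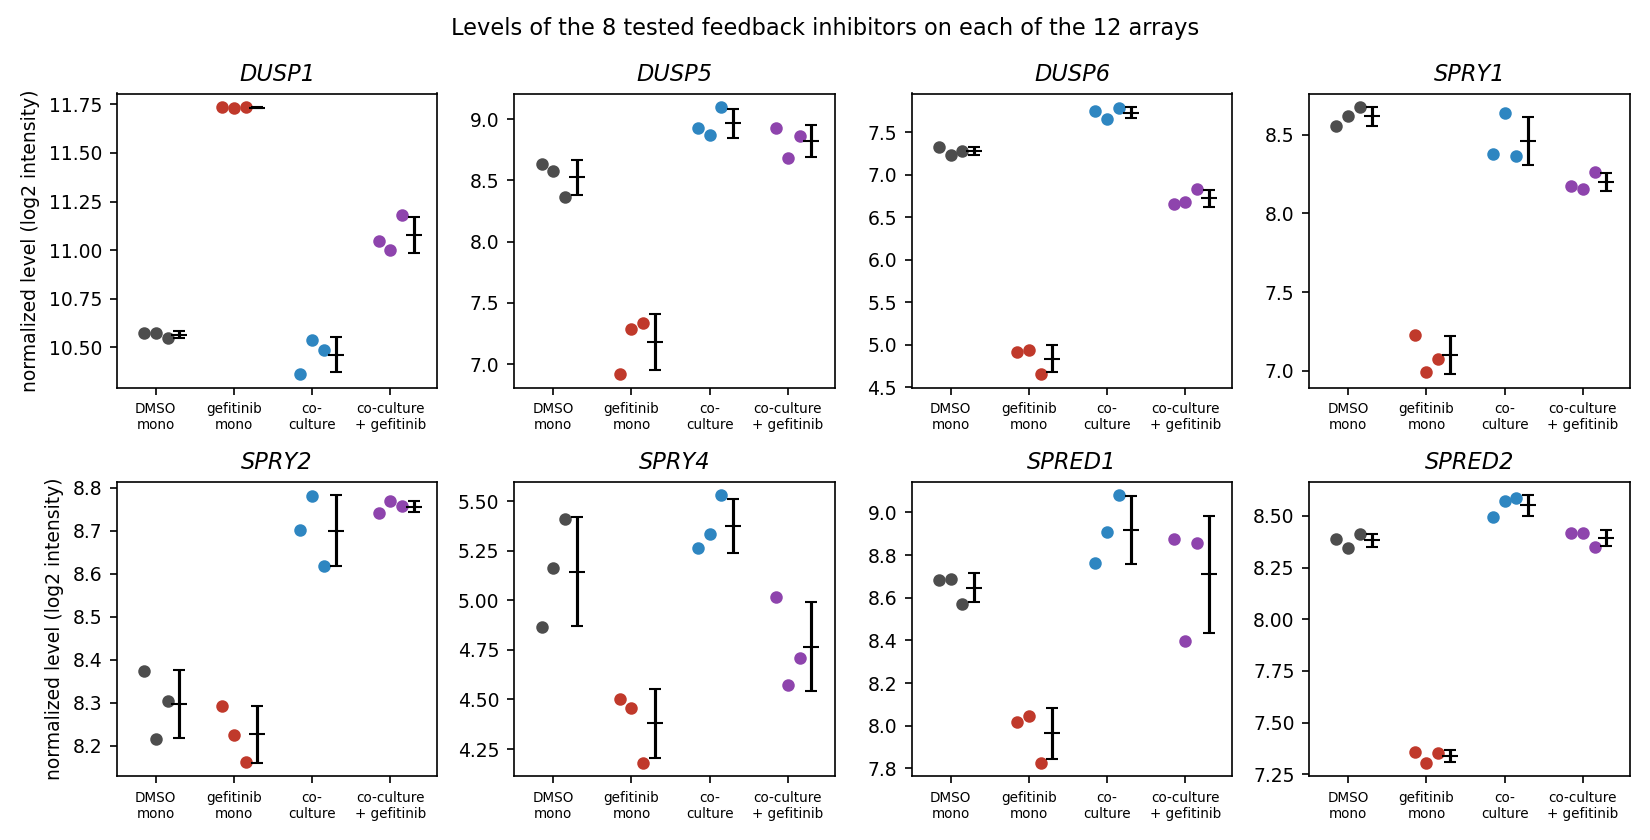
Levels (normalized log2 intensity) of the 8 tested genes, each by its brightest tested probe, on the 12 arrays, with the mean and SD of each group (n = 3) beside the points. Each panel has its own axis range. In the panels of DUSP5, DUSP6, SPRY1, SPRY4, SPRED1 and SPRED2 the gefitinib monoculture arrays are the lowest, whereas DUSP1 is highest there and SPRY2 splits by culture.

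SPRED2, a Sprouty-related inhibitor of the step from RAS to RAF, was lowered by gefitinib in monoculture by a log2 change of -1.04 ± 0.086 (adjusted p = 6.36e-06), a fall of 2.06-fold. Its levels were 8.39, 8.35 and 8.41 with DMSO and 7.36, 7.31 and 7.35 with gefitinib. The co-culture arrays stood at 8.49, 8.57 and 8.59 without drug and 8.42, 8.42 and 8.35 with it. The low group was again gefitinib monoculture, and co-culture with gefitinib overlapped with DMSO monoculture. In co-culture the change was -0.16 ± 0.086 (adjusted p = 0.616), and the effects differed by 0.89 ± 0.12 (adjusted p = 8.87e-04). Co-culture with gefitinib differed from DMSO monoculture by 0.01 ± 0.086 (adjusted p = 0.969), with a 95% confidence interval from -0.18 to 0.20.

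SPRED1, which like SPRED2 binds neurofibromin, had levels of 8.68, 8.69 and 8.57 with DMSO and 8.02, 8.04 and 7.83 with gefitinib. In co-culture they were 8.76, 8.91 and 9.08 without drug and 8.87, 8.39 and 8.86 with it, and the co-culture groups overlapped. SPRED1 changed by -0.68 ± 0.14 with gefitinib in monoculture (adjusted p = 0.00513) and by -0.21 ± 0.14 in co-culture (adjusted p = 0.722). The difference of the effects, 0.48 ± 0.20, did not pass (adjusted p = 0.178), but did without gefitinib co-culture replicate 2 (0.63, adjusted p = 0.0421). SPRED1 therefore fell in monoculture without being shown to respond otherwise in co-culture. Under gefitinib it was higher in co-culture by 0.75 ± 0.14 (adjusted p = 0.00243), and SPRED2 was higher by 1.05 ± 0.086 (adjusted p = 5.52e-06).

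Counted over the family, the effect of gefitinib differed between the cultures for 6 of the 10 probes, with 5 called positive and 1 negative, where 10.9% of all probes were called, 5.29% positive and 5.57% negative. They were the probes of DUSP5, DUSP6, SPRY1 (both) and SPRED2, whose falls were smaller in co-culture, and that of DUSP1, whose rise was smaller. Under gefitinib, 7 probes were higher in co-culture than in monoculture and 1, that of DUSP1, was lower, where 26.8% of all probes were called, 12.6% higher and 14.2% lower. With 1 probe per gene symbol, the difference of the effects was called for 5 of 8 member probes and 2439 of all 13577. Co-culture under gefitinib was called there for 7 of 8 member probes and 4801 of all 13577. Without drug, limma called 2 probes higher, those of DUSP6 and SPRY2, and 0 lower, with 3 up and 1 down at an unadjusted p under 0.05, where 3.68% of all probes were called, 2.41% higher and 1.28% lower. Of these calls over all probes 65.3% were higher, or 77.2% with median scaling and 46.5% with 1 probe per gene, where the balance turned. Against DMSO monoculture, co-culture with gefitinib had 2 probes called higher, those of DUSP1 and SPRY2, and 1 lower, that of DUSP6, where 3.4% of all probes were called, 2.15% higher and 1.25% lower. At an unadjusted p under 0.05 there were 2 higher and 4 lower. Of the calls over all probes 63.2% were higher, or 40.7% with 1 probe per gene. The comparisons that share a group of arrays are not independent of each other.

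Across the 12 arrays the members fell into the same arrangement. Correlations of DUSP1 with the other genes except SPRY2 lay between r = -0.97 and -0.82 (6 pairs). Pairs among DUSP5, DUSP6, SPRY1, SPRY4, SPRED1 and SPRED2 lay between 0.72 and 0.97 (15 pairs), and pairs of these with SPRY2 between 0.37 and 0.74 (6 pairs). All of these values include the differences between the 4 groups, which the arrays of each group share.

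Genes most like DUSP6 over the 12 arrays were FGFBP1, a secreted carrier of fibroblast growth factors (r = 0.995), EMP1, an epithelial membrane protein (r = 0.994), GOT1, the cytosolic aspartate aminotransferase (r = 0.993), YBX2 (r = 0.992) and HPCAL1 (r = 0.990). FGFBP1 had mean levels of 8.87 with DMSO, 5.55 with gefitinib, 9.30 in co-culture and 7.84 in co-culture with gefitinib, in the same order as DUSP6. Most like DUSP1 were CPE, carboxypeptidase E (r = 0.985), KLHL24 (r = 0.981), FILIP1L (r = 0.979), TAGLN, an actin-binding protein (r = 0.975), and HLA-B (r = 0.974). CPE had mean levels of 5.54, 8.62, 5.45 and 6.57 in the same order of groups, with gefitinib monoculture highest. For SPRY4 the closest were NUP62CL (r = 0.941), NFIA (r = 0.931), FASN (r = 0.929), HSPA4L (r = 0.927) and FADS1 (r = 0.927), lower values for a probe close to background.

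A list of other genes that ERK switches on was examined beside these inhibitors. The list was chosen with earlier results of these data known, so its counts are no independent test. Of its 13 tested genes, gefitinib lowered 8 and raised 0 by limma's test in monoculture (0 up and 8 down also at an unadjusted p under 0.05), and the list's median was -1.44 on the log2 scale. Among all probes, 10.6% were called lower and 11.4% higher in that comparison. With 1 probe per gene symbol, 1974 of 13577 were called lower and 2301 higher. EGR1, an immediate early transcription factor, fell by 3.97 ± 0.13 on the log2 scale (adjusted p = 6.49e-08), ETV5 by 2.30 ± 0.16, FOSL1 by 2.12 ± 0.13 and PHLDA1 by 2.09 ± 0.12. In co-culture gefitinib lowered 1 of the 13, ETV5 (log2 change -1.07 ± 0.16, adjusted p = 0.00944), and raised 0, with 5 lower and 0 higher at an unadjusted p under 0.05. There, 0.487% of all probes were called lower and 0.286% higher. The level of EGR1 was 10.14 in co-culture and 10.10 in co-culture with gefitinib. The difference between the cultures passed for 8 of the 13, each positive, with EGR1 at 3.93 ± 0.18 (adjusted p = 3.37e-06). Of all probes, 5.29% were called positive and 5.57% negative for this difference. With 1 probe per gene symbol, 1094 of 13577 were called positive and 1345 negative. DUSP6 and ETV5 were thus called lower in co-culture, whereas EGR1 was not.

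**Figure D4:**
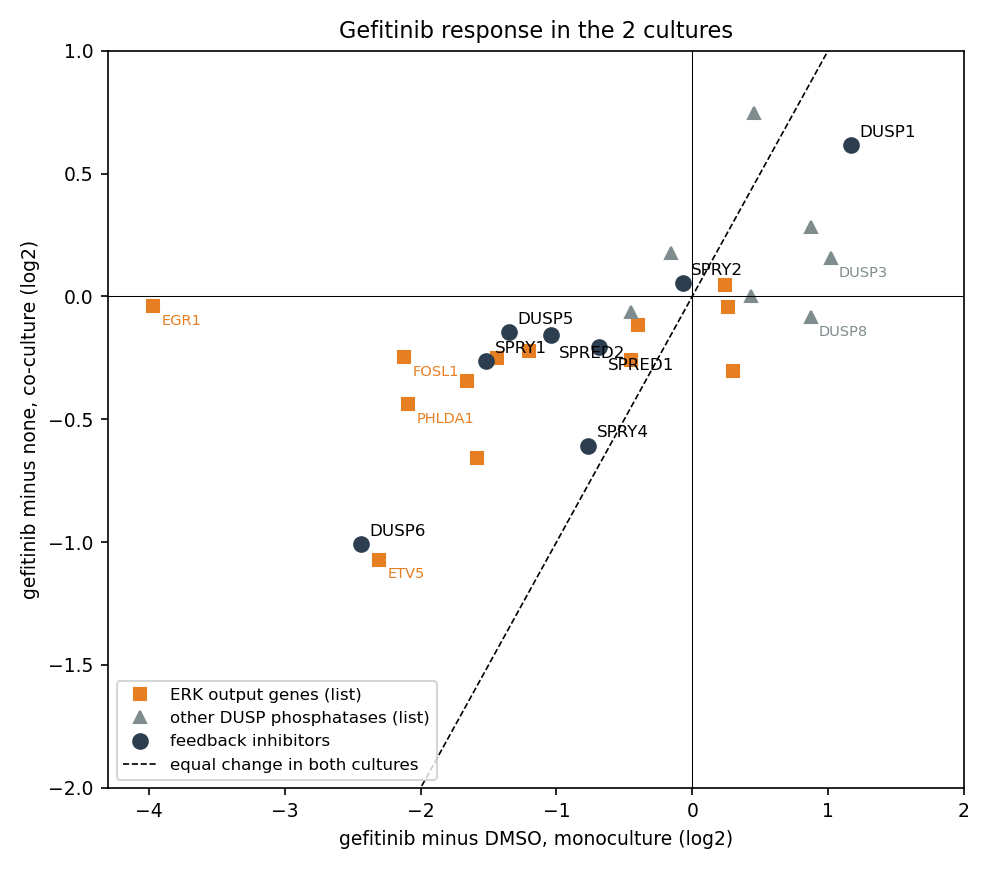
Log2 change with gefitinib in monoculture (horizontal axis) and in co-culture (vertical axis, drawn at a larger scale) for the 8 feedback inhibitors (circles), 13 other ERK output genes (squares) and 7 other DUSP phosphatases (triangles). The dashed line marks equal change in both cultures, and EGR1 and DUSP6 lie far to the left, with EGR1 near 0 and DUSP6 near -1.01 on the vertical axis.

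Other DUSP phosphatases leaned upward with gefitinib in monoculture, as DUSP1 did. Of 7 tested, 4 rose and 1, DUSP2, fell (log2 change -0.45 ± 0.14), with a median of 0.46. Among all probes, 11.4% were called higher and 10.6% lower there, 0.772% were called in co-culture, and 10.9% for the difference between the cultures. With 1 probe per gene symbol, 2301 of 13577 were called higher and 1974 lower in monoculture, and 2439 for the difference. DUSP3, an atypical phosphatase, rose by 1.02 ± 0.19 (adjusted p = 0.00221), DUSP8, which acts on p38 and JNK, by 0.87 ± 0.17 (adjusted p = 0.00297), and DUSP16, which acts on JNK and p38, by 0.87 ± 0.13 (adjusted p = 4.66e-04). In co-culture gefitinib moved 0 of the 7 past limma's test, with 2 up and 0 down at an unadjusted p under 0.05. The difference between the cultures passed for 1 of them, DUSP8 (-0.96 ± 0.24, adjusted p = 0.0250).

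Of 8 tested genes in a list of further negative regulators, 1 rose and 1 fell with gefitinib in monoculture (median log2 change 0.02). The shares called over all probes were 22% in this comparison and 10.9% for the difference between the cultures. With 1 probe per gene symbol, as the list is counted, the numbers called were higher, 4275 and 2439 of 13577. CBLB, a ubiquitin ligase of receptor kinases, rose by 1.69 ± 0.13 (adjusted p = 3.55e-06), and ERRFI1, an inhibitor of the EGFR kinase, fell by 0.96 ± 0.10 on the log2 scale (adjusted p = 5.16e-05). The effects differed between the cultures for both, by -1.62 ± 0.18 for CBLB (adjusted p = 2.31e-04) and by 0.95 ± 0.15 for ERRFI1 (adjusted p = 0.00189). In co-culture gefitinib moved 0 of the 8 past limma's test, and 0 at an unadjusted p under 0.05.

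Among genes of the cascade itself, 2 of 15 tested rose and 3 fell with gefitinib in monoculture (median log2 change -0.03). For this and the next list, the shares over all probes were 11.4% higher and 10.6% lower in monoculture, 22% in all. The lists count 1 probe per gene, and with 1 probe per gene symbol more were called, 4275 of 13577 (2301 higher and 1974 lower). In co-culture 0.772% of all probes were called. RPS6KA2, a kinase downstream of ERK, rose by 1.59 ± 0.16 (adjusted p = 2.54e-05), and MAP2K1, the kinase MEK1, fell by 0.80 ± 0.11 on the log2 scale (adjusted p = 3.82e-04). HRAS, a RAS protein, fell by 0.72 ± 0.10 on the log2 scale (adjusted p = 4.11e-04). EGFR was at -0.37 ± 0.12 (adjusted p = 0.0444). Of the 3 further EGFR probes, 1 went the other way. In co-culture 1 of the 15 was called, MKNK2, a kinase activated by ERK, at -0.61 ± 0.094 (adjusted p = 0.0109). Of the p38, JNK and ERK5 kinases, 1 of 7 tested fell in monoculture, MAPK13, a p38 kinase, at -0.85 ± 0.14 (adjusted p = 0.00112), and 0 were called in co-culture by limma, with 0 up and 1 down at an unadjusted p under 0.05.

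Markers of fibroblasts moved with the same drug in monoculture, where the labels name no fibroblasts. Of the 15 markers 7 were tested, and 4 of them rose in monoculture, LUM by 1.41 ± 0.25, COL1A1 by 1.30 ± 0.32, COL5A1 by 1.29 ± 0.14 and VIM by 1.17 ± 0.12. In that comparison 11.4% of all probes were called higher, or 2301 of 13577 with 1 probe per gene symbol. The summed linear level of the 15 ranged from 2327 to 2404 with DMSO, from 4843 to 5384 with gefitinib, from 2692 to 3002 in co-culture and from 2460 to 2953 in co-culture with gefitinib. The part of these genes in the changes of the feedback inhibitors was not tested. In bulk RNA, fewer cells of a kind and less RNA per cell cannot be told apart.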

How the data were processed

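The members and lists were chosen with earlier results of these data known. The authors deposited scanner intensity values per probe, linear and without background subtraction, with a detection p-value beside each, per the file headers. They also deposited a table of normalized intensity values, linear and uncentred, and neither the file headers nor the labels name the normalization method. In the scanner table, monoculture rows were in the order of the probe column (r of at least 0.999883 with the normalized table), and co-culture rows were not (r of at most 0.00105). Each of the latter was given the probe whose 6 normalized values it matched, and 100% of 48106 rows were mutual best matches. As a test, 100% of 48104 shuffled monoculture rows returned to their probe. The naming of co-culture rows therefore depends on that table.

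Background was corrected and arrays quantile-normalized with neqc of limma 3.58.1 in R 4.3.3 (offset 16). Probes detected at p under 0.05 on at least 3 arrays were kept (25896). Symbols came from the platform annotation, with 30113 probes of 1 symbol, 8 of several and 17983 unnamed here. One model with a mean per group was fitted to all 12 arrays, without a block, and it was checked on simulated data. Arrays of 1 group correlated with r between 0.984 and 0.989, and none were identical. Where every array of a group lacked detection, the fold is a bound: the probe was raised on each such array to the lowest level of any detected probe, if it lay under it, before the group means were compared. The number of arrays limits the precision. All members were named with all probes, other list genes for at most the 4 largest called changes per list and comparison, with EGFR and EGR1 always, and the 5 genes most like DUSP6, SPRY4 and DUSP1 by Pearson correlation. The alternatives were the authors' normalized values, no background correction, median scaling, cyclic loess, no or a stricter detection filter, only the groups compared, the replicate block, 1 probe per gene and the omission of each array. The files name no slide, so that alternative was not run.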

Additional observations from a re-analysis of the deposited data

Results flagged for a closer look

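The effect of gefitinib differed between co-culture and monoculture for 6 of the 10 tested probes of these genes in limma's test of the difference itself. In that test 10.9% of all probes were called, or 2439 of 13577 with 1 probe per gene symbol. The log2 change in co-culture minus that in monoculture was 1.43 for DUSP6, 1.20 for DUSP5, 1.26 and 1.65 for the 2 probes of SPRY1, 0.89 for SPRED2 and -0.55 for DUSP1. For DUSP6, DUSP5, SPRY1 and SPRED2 the positive value means a smaller fall in co-culture, and for DUSP1 the negative value means a smaller rise. The value for DUSP6 was 0.47 on the authors' normalized values, and that of the dimmer SPRY1 probe 0.88. The call for DUSP1 ended with median scaling (-0.38) and without DMSO replicate 3 or co-culture replicate 2 (adjusted p = 0.0504 and 0.0528).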

How the results depend on the processing

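Of 1232 values of single member probes under 21 other settings, 1159 kept their call and direction, 59 lost the call, 6 gained one, 8 uncalled values changed sign and 0 called values reversed. The kept values include those uncalled in both. Many settings leave the change itself as it was, so its direction could not turn there. These are another detection filter, only the groups compared, the replicate block, 1 probe per gene and the omission of an array outside the comparison. Counts of called member probes kept within 1.5 times of the main value for gefitinib in monoculture, for co-culture under gefitinib and for the difference of the effects. The count of 2 for gefitinib in co-culture was 0 with only the groups compared (3 at an unadjusted p under 0.05 by limma) and 1 to 2 with an array left out (1 without co-culture replicate 1). The count of 2 for co-culture without drug was 0 with median scaling (3 unadjusted), 0 with only the groups compared and 0 with the replicate block (4 unadjusted each), 1 with no filter on detection, and 0 to 2 with an array left out (0 without any 1 of the 6 arrays compared, gefitinib monoculture replicate 1 or 2 or gefitinib co-culture replicate 1, with 3 to 4 unadjusted, and 1 without gefitinib co-culture replicate 2 or 3). The count of 3 for co-culture with gefitinib against DMSO monoculture was 0 with only the groups compared (5 unadjusted) and 0 to 3 with an array left out (0 without DMSO replicate 3, with 5 unadjusted, and 1 without DMSO replicate 2 or gefitinib co-culture replicate 1 or 2). With only the groups compared, fewer arrays estimate the spread. For the other changes the cause was not tested.

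Over all probes, the count for gefitinib in co-culture was 200, against 418 on the authors' values, 429 without background correction, 316 with the stricter filter, 21 with only the groups compared, 131 with the replicate block and 106 to 174 with an array left out. For co-culture without drug it was 954, against 1656 on the authors' values, 1665 without background correction, 446 with only the groups compared, 480 with 1 probe per gene and 427 to 909 with an array left out. For co-culture with gefitinib against DMSO monoculture it was 880, against 1558, 1550, 352, 415 and 461 to 831 in the same order. These counts fell by over 1.5 times without any 1 of the 6 co-culture arrays (gefitinib in co-culture), without any DMSO array or co-culture replicate 1 or 2 (no drug), and without DMSO replicate 2 or 3 or gefitinib co-culture replicate 1 (the last comparison). The share of calls that were higher was 51.8% for gefitinib in monoculture and 39.9% with median scaling, and 65.3% for co-culture without drug and 77.2% with median scaling, 76.2% with only the groups compared and 46.5% with 1 probe per gene. For co-culture with gefitinib against DMSO monoculture it was 63.2% and 40.7% with 1 probe per gene. Deviations of arrays with the same replicate number correlated with r between -0.028 and 0.072, and those with different numbers between -0.103 and 0.041. Of the 12 arrays, 8 correlated best with an array of their own number. These values do not settle whether the number pairs the arrays. The main model did not pair them, and the replicate block was run as an alternative. The replicate block also ended the call of SPRY4 probe ILMN_1688811 in monoculture (adjusted p = 0.0626). Low signal over background limits SPRY4, DUSP4, DUSP7 and DUSP6 under gefitinib.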
